A study of Bos taurus with 252 samples.

Results

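Genes by which blood monocytes and macrophages are commonly recognised were followed in whole blood of beef steers. These 8 genes, CD14, CSF1R, CD163, VCAN, CD68, CCR2, CX3CR1 and FCGR1A, were chosen by name, and are 8 of the 33282 genes in the deposited count table. All 8 passed the filter on low counts, which left 19056 genes for testing. The table holds 1 library for each of 42 steers at each of 6 times, on day 0 and then 3, 7, 14, 21 or 56 days later.

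The study asked how the blood transcriptome of cattle changes over time after a single antimicrobial administration. Crossbred steers were allotted to 7 groups, and 6 steers per group were sequenced. The day 0 blood was drawn before administration. The NC group received no antimicrobial. CEFT steers received ceftiofur, ENRO steers enrofloxacin, FLOR steers florfenicol, OXYT steers oxytetracycline, TILD steers tildipirosin and TULA steers tulathromycin. All 42 steers, NC included, had been given tildipirosin, a growth implant, vaccines and dewormers in the earlier backgrounding period. Each group was housed in 1 pen, so pen and treatment cannot be told apart. Sequencing lane was also tied to group. The NC and ENRO libraries were on lane 1, TULA on lane 2, and CEFT and OXYT on lane 3. Of the FLOR steers, 2 were run on lane 1 and 4 on lane 2. The TILD steers were split between lane 2 (4 steers) and lane 3 (2 steers). In the comparison of CEFT, OXYT, TILD or TULA with NC, lane and treatment cannot be told apart.

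Monocytes are white blood cells that form in the bone marrow, circulate briefly and enter tissues, where they can become macrophages or dendritic cells. Classical monocytes carry abundant CD14 and CCR2 and leave the marrow along CCR2 ligands, whereas nonclassical monocytes carry abundant CX3CR1 and patrol the vessel wall. Their survival depends on signals through CSF1R. In whole blood they are a minority beside neutrophils and lymphocytes, so fewer monocytes and less of a transcript per monocyte cannot be told apart in these libraries.

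Library totals ran from 26.1 M to 74.1 M counts (M, mega), with a median of 43.6 M counts. Hemoglobin genes took 0.00405% to 25.5% of the counts of a library, and the median share by day was 0.224%, 0.623%, 0.991%, 3.07%, 3.36% and 0.334% from day 0 to day 56. Levels are given as CPM, the counts of a gene relative to the total of its library, scaled by edgeR's TMM factors, which do not adjust for transcript length, so levels were not compared between genes. On day 14 one steer, Flor6, lay above the other 5 steers of its group for 4 of the 8 genes, CD14, CD163, CCR2 and FCGR1A, and results that rest on it are given with and without it.

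With day, 7 of the 8 genes changed in the test of all 5 later days together (edgeR quasi-likelihood test with steer as a block, Benjamini-Hochberg adjusted p under 0.05). That test called 81% of the 19056 genes, so the count by itself does not set these genes apart. On day 3, 3 of the 8 genes were called and all were lower than on day 0, against 19.2% of all genes called lower. On day 7, 7 were called lower against 20.6%. On day 14, 6 were called lower against 30.9%. On day 21, 7 were called lower against 32.5%, and on day 56, 7 were called lower against 31.8%. No member was called higher on any day. The median log2 change of the 8 genes was -0.13, -0.45, -0.63, -0.53 and -0.66 on the 5 later days in order, and the median over all genes tested lay between 0.02 and 0.03 on each of these days. Within lane 1, lane 2 and lane 3 taken alone, 7, 6 and 6 members were called on day 14. The shares of all genes called within a lane are not given here. In these fits VCAN was at -1.50, -1.41 and -1.72 and CD163 at -1.70, -1.16 and -1.88 on the log2 scale, with Flor6 on lane 2.

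**Figure D1:**
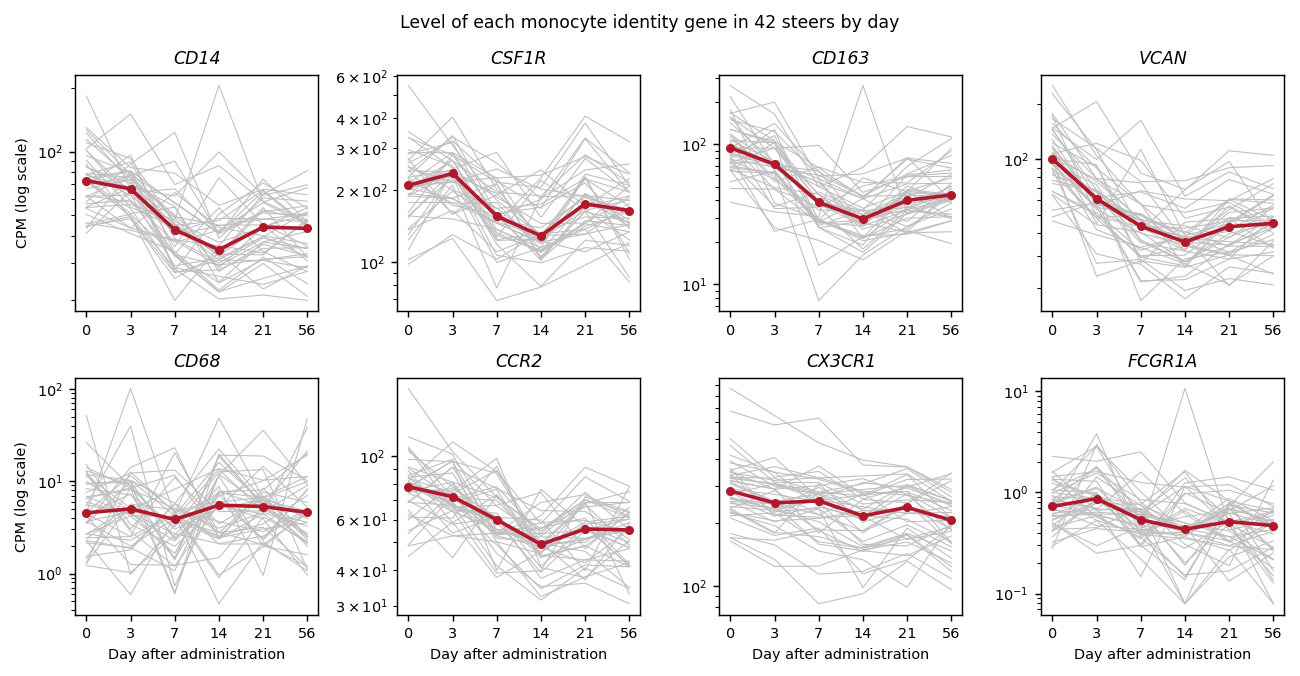
Level of each of the 8 genes in every library by day, in CPM on a log axis, with the median of the 42 steers; the 4 libraries with 0 counts of FCGR1A are drawn at that gene's lowest value above 0. The medians of CD14, CD163 and VCAN on day 14 are 34.5, 29.4 and 35.6 CPM, from 73, 94.8 and 101 CPM on day 0, and CD68 shows no such shift.

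VCAN and CD163 fell the most. VCAN encodes versican, a matrix proteoglycan that classical monocytes produce. On day 0 the VCAN level of the 42 steers ranged from 46.2 to 252.4 CPM with a median of 101 CPM. On day 14 it ranged from 17.5 to 76.6 CPM with a median of 35.6 CPM. The ranges overlapped across steers, but within steers VCAN was lower than on day 0 in 42 of 42 on day 14. The fitted log2 change was -1.55 (SE 0.08, adjusted p = 7.18e-44), or 34.3% of the day 0 level, and no other gene of the 19056 had a smaller p on that day. On day 3 VCAN had the widest change of the 8 genes, at -0.71 (SE 0.08, adjusted p = 2.50e-14), with 38 of 42 steers lower. It was lower in 41, 42 and 41 steers on days 7, 21 and 56, and its log2 change on these days was -1.22, -1.28 and -1.20.

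CD163 encodes the scavenger receptor that takes up complexes of hemoglobin and haptoglobin. Its level was 38.6 to 263 CPM on day 0 (median 94.8 CPM), 7.64 to 98.5 CPM on day 7 (median 38.5 CPM) and 15 to 265 CPM on day 14 (median 29.4 CPM). The highest day 14 value belonged to Flor6. The log2 change was -0.45 (day 3), -1.40 (day 7), -1.59 (day 14, SE 0.12, adjusted p = 3.00e-28), -1.30 (day 21) and -1.11 (day 56), each called. CD163 was lower than on day 0 in 41 of 42 steers on day 14 and in 42 of 42 on day 21. All 42 steers were lower for 111 genes on day 14 (0.582% of those tested) and for 241 genes on day 21 (1.26%). The median change of CD163 on day 14 was undercut by 0.178% of all genes, and that of VCAN by 0.22%.

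CD14 and FCGR1A are surface receptors for microbial products and antibody. CD14, the co-receptor that hands lipopolysaccharide to the TLR4 complex, ranged from 41.2 to 183 CPM on day 0 (median 73 CPM) and from 20.2 to 206 CPM on day 14 (median 34.5 CPM). It was near its starting level on day 3, when 24 of 42 steers were lower and the log2 change of -0.17 did not pass the test (adjusted p = 0.105). Its log2 change was then -0.78 (day 7), -0.94 (day 14, SE 0.09, adjusted p = 2.38e-20), -0.82 (day 21) and -0.88 (day 56), each called. Between 37 and 40 of the 42 steers were lower on each of these days.

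FCGR1A, the high-affinity IgG receptor, was rare in these libraries, with a median of 25 counts. Its level ranged from 0.281 to 2.27 CPM on day 0 (median 0.727 CPM) and from 0 to 10.7 CPM on day 14 (median 0.432 CPM). It had 0 counts in 4 libraries, which allows up to 0.0688 to 0.0911 CPM given their totals (3 counts, counting error only). The log2 change was 0.38 (day 3, adjusted p = 0.073), -0.44 (day 7, adjusted p = 0.043), -0.24 (day 14, SE 0.19, adjusted p = 0.261), -0.56 (day 21, adjusted p = 0.0069) and -0.76 (day 56, adjusted p = 0.00031). With all steers kept, the day 14 change was called by DESeq2 (-0.42, adjusted p = 0.041) and by limma (-0.72, adjusted p = 0.00068). By edgeR it was not called with ComBat_seq (-0.32, adjusted p = 0.129) or without the steer block (-0.05, adjusted p = 0.857). Nor was it called without the filter (-0.23, adjusted p = 0.384), without hemoglobin genes (-0.23, adjusted p = 0.287) or with DESeq2 size factors (-0.25, adjusted p = 0.242). Without Flor6 the day 14 change by edgeR was -0.58 (adjusted p = 0.00115) and was called, and the day 3 change of 0.38 was called as well (adjusted p = 0.033). Within lanes 1, 2 and 3 it was -1.15, 0.55 and -0.15 on day 14, with Flor6 on lane 2. The median of its 42 within-steer changes on day 14 was -0.49, with 30 of 42 steers lower.

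CSF1R, the receptor for the growth factors CSF1 and IL34, ranged from 98.0 to 551 CPM on day 0 (median 210 CPM) and from 78.6 to 244 CPM on day 14 (median 129 CPM). It did not pass the test on day 3 (log2 change 0.13, adjusted p = 0.126), when 18 of 42 steers were lower and 24 higher. It was called on each later day, with log2 changes of -0.40 (day 7), -0.60 (day 14, SE 0.07, adjusted p = 1.55e-14), -0.17 (day 21, adjusted p = 0.024) and -0.36 (day 56). The decline was widest on day 14, with 38 of 42 steers lower, and on day 21 only 27 were. Among the steers on lane 2 alone, the log2 change of CSF1R was 0.06 on day 21 and 0.01 on day 56.

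CCR2 and CX3CR1 are chemokine receptors. CCR2, which draws monocytes along CCL2, ranged from 44.6 to 173 CPM on day 0 (median 78.2 CPM) and from 31.3 to 76.6 CPM on day 14 (median 49.1 CPM). Its log2 change was -0.09 on day 3 (adjusted p = 0.24) and then, called each time, -0.35, -0.67 (SE 0.06, adjusted p = 1.23e-21 on day 14), -0.50 and -0.55. It was lower in 40 of 42 steers on day 14. CX3CR1, the fractalkine receptor, which NK and cytotoxic T cells carry as well as nonclassical monocytes, ranged from 164 to 865 CPM on day 0 (median 283 CPM) and from 92.3 to 396 CPM on day 14 (median 216 CPM). Its log2 change was called on all 5 days, at -0.21 (day 3, adjusted p = 0.000576), -0.31, -0.50, -0.38 and -0.54 (day 56, SE 0.05, adjusted p = 1.83e-18). CX3CR1 was lower in 37 of 42 steers by day 3 and in 40 of 42 on day 56.

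CD68, a lysosomal membrane protein of macrophages, was the exception. Its level ranged from 1.22 to 51.8 CPM on day 0 (median 4.55 CPM) and from 0.470 to 48.2 CPM on day 14 (median 5.50 CPM). The test of all days did not call it (adjusted p = 0.498), and its log2 changes of 0.03, -0.46, 0.03, -0.21 and -0.14 did not pass on any single day. Between 20 and 26 of 42 steers were lower on any day. CD68 also had the widest spread among libraries of the 8 genes. Its SD within a treatment and day was 1.26 on the log2 scale, larger than that of 91.8% of genes tested, where the median gene had 0.45. The SE of its log2 change was 0.27 to 0.28 on each day, against 0.05 to 0.20 for the other 7 genes.

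The median level in CPM was lowest on day 14 for 6 of the 8 genes, CD14, CSF1R, CD163, VCAN, CCR2 and FCGR1A. For FCGR1A, the fitted change and the median of the within-steer changes (-0.67) were lowest on day 56. From day 3 to day 7, CD14 was lower in 37 of 42 steers (median log2 step -0.61), CD163 in 37 (-0.93), FCGR1A in 36 (-0.55), CSF1R in 35 (-0.42) and VCAN in 35 (-0.50). From day 14 to day 21 most of the same genes were higher again. CSF1R was higher in 38 of 42 steers (median step 0.39), CD163 in 35 (0.39), CCR2 in 32 (0.19), VCAN in 31 (0.23) and CD14 in 30 (0.33). FCGR1A was higher in 21 of 42. From day 21 to day 56 the steps were mixed, from CSF1R lower in 30 of 42 steers (median step -0.16) to CD163 higher in 27 (0.13). CX3CR1 was lower in 29 (-0.26) and FCGR1A in 26 (-0.38). These steps were not tested.

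The members did not move by equal amounts. Of 140 comparisons between 2 members on 1 day, 89 passed (two-sided sign-flip permutation test over steers, Benjamini-Hochberg adjusted over the 140). On day 14 the change of CSF1R was 0.93 above that of VCAN on the log2 scale (SD 0.48 over 42 steers, adjusted p = 3.18e-05, from the smallest p that the permutations can give, 1e-05), and VCAN was the lower of this pair in 42 of 42 steers. VCAN was also below CCR2 in 42 of 42 steers, by 0.86 (adjusted p = 3.18e-05). CD14 lay between, 0.57 above VCAN and 0.36 below CSF1R (adjusted p = 3.18e-05 and 5.60e-05). Neither the difference between CD163 and VCAN (-0.08, SD 0.67, adjusted p = 0.534) nor that between CSF1R and CCR2 (0.07, SD 0.40, adjusted p = 0.339) passed.

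Of 14 ligands and molecular partners of these genes, 12 were tested and all 12 passed the test of all days together, which called 81% of all genes. On day 14, 2 were higher and 7 lower, where 34.2% of all genes were called higher and 30.9% lower. The median log2 change of the 12 was -0.38, against 0.03 over all genes. HP, haptoglobin, whose complex with hemoglobin is the ligand of CD163, had medians of 242 CPM on day 0 and 97.9 CPM on day 56 (log2 change -1.17, SE 0.10, adjusted p = 7.93e-23). HMOX1, heme oxygenase 1, which degrades the heme taken up by CD163, was lowest relative to day 0 on day 7 (-0.49, adjusted p = 1.01e-09). The sheddase ADAM17, which releases CD163 from the cell surface, showed its widest change of -0.38 on day 56 (adjusted p = 1.06e-33).

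Transcripts of the lipopolysaccharide receptor complex fell with CD14. LY96, which encodes the co-receptor MD-2, dropped by 0.81 on day 21 (SE 0.06, adjusted p = 1.21e-28) and TLR4 by 0.66 on day 7 (adjusted p = 1.44e-14). Outside that complex, TLR2 dropped by 0.50 on day 21 (adjusted p = 5.14e-16). LBP, the lipopolysaccharide-binding protein, made mainly in liver, had a median of 5.5 counts on day 0 and passed on no single day (widest change -0.59 on day 7, adjusted p = 0.054). FCER1G, the signalling chain used by FCGR1A, moved the other way, with 0.40 on day 14 (adjusted p = 0.044). It was not called within any of the 3 lanes taken alone (0.45, 0.25 and 0.54).

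The 2 growth factors that bind CSF1R parted. CSF1 had medians of 24.1 CPM on day 0 and 17.1 CPM on day 14, and its widest change was -0.75 on day 21 (SE 0.13, adjusted p = 3.42e-08). IL34 was rare, with medians of 0.260 CPM on day 0 and 0.487 CPM on day 56, and rose by 0.87 on day 56 (SE 0.15, adjusted p = 6.95e-08). The CCR2 ligands were near the limit of counting. CCL2 had a median of 3.5 counts on day 0, and its day 3 value of 0.93 (adjusted p = 0.0075) was not called by DESeq2 (0.73, adjusted p = 0.241) and was -0.30 among the steers of lane 1. CCL8, with a median of 11 counts on day 0, had a change of -1.59 on day 56 (SE 0.42, adjusted p = 0.00049), not called within lane 1 or lane 2. CCL7 had no row under that symbol, and CX3CL1, the ligand of CX3CR1, did not pass the filter.

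Other genes of monocytes and macrophages were less uniform. Of 33 listed, 31 were tested and 27 passed the test of all days, with 81% of all genes called. On day 3, 11 were higher and 5 lower, with 22.1% and 19.2% of all genes called in these directions. On day 14, 7 were higher and 15 lower, with 34.2% and 30.9% of all genes, and the median of the 31 was -0.23. The widest changes were those of the scavenger receptors MARCO (-1.70 on day 56, adjusted p = 3.68e-06, and -1.50 with an adjusted p of 0.053 within lane 3) and CD36 (-1.45 on day 56, adjusted p = 6.78e-07), of SIRPA, the inhibitory receptor for CD47 (-0.79 on day 14, adjusted p = 2.32e-08, and -0.46 with an adjusted p of 0.080 within lane 2), and of PLD4, a phospholipase D family member, which rose (0.72 on day 21, adjusted p = 7.69e-35).

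Markers of other blood cells moved over the same days. Of all genes tested, 34.2% were called higher and 30.9% lower on day 14, 33.9% higher and 31.8% lower on day 56, and 20.6% lower on day 7. The summed level of the 8 genes had a median of 881 CPM on day 0, 530 CPM on day 14 and 557 CPM on day 56. CX3CR1 and CSF1R, with day 0 medians of 283 and 210 CPM, were its largest parts, so the sum does not weigh the genes equally. The sum of 14 T cell genes had medians of 2512 CPM on day 0 and 3417 CPM on day 56 (ranges 1977 to 3939 and 2519 to 4831), and on day 56, 11 were higher and 1 lower. Of 8 B cell genes, 7 were higher and 1 lower on day 56, with sums of 989 to 2523 CPM on day 0 and 1521 to 3318 CPM on day 56. Of 16 neutrophil genes tested, 9 were lower and 0 higher on day 7, with sums of 2430 to 7493 CPM on day 0 and 2112 to 7067 CPM on day 7. On day 14 and again on day 56, 6 of the 16 were lower and 0 higher, with median log2 changes of -0.29 and 0.05. All 9 erythroid genes tested were higher on day 14, and their summed median went from 2337 CPM to 31896 CPM. Of 9 genes that respond to glucocorticoids, 8 were lower and 0 higher on day 14, with KLF9 at -1.15, FKBP5 at -0.73 and, on day 7, IL1R2 at -1.15. The part of these movements in the decline of the monocyte genes was not tested.

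Steers that received no antimicrobial showed the decline as well. In the 6 NC steers alone, 7 of the 8 genes passed the test of all days together, against 30.8% of all genes. On day 3 no member was called (0 by edgeR in the fit of NC alone, 2 at an unadjusted p under 0.05), against 0.0105% of all genes called lower. In the joint fit of all libraries the NC change of VCAN on day 3, -0.80 in both fits, was called (adjusted p = 0.028, with 0.085 in NC alone). Every called change was downward. The later days had 3 members called lower against 1.76% of all genes (day 7), 7 against 12.9% (day 14), 4 against 10.7% (day 21) and 6 against 12.9% (day 56). On day 14 the log2 change in NC was -1.83 for CD163 (SE 0.28, adjusted p = 7.36e-05), -1.51 for VCAN (SE 0.17, adjusted p = 8.92e-06), -1.22 for FCGR1A (SE 0.40, adjusted p = 0.024) and -0.91 for CD14 (SE 0.22, adjusted p = 0.0038). Leaving out 1 NC steer at a time left 4 to 6 of the 8 genes called on day 14, with 4 without NC5, and 1 to 3 on day 7, with 1 without NC5 or NC13. On day 21, 2 were called without NC7 or NC13, and on day 56, 3 without NC13.

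**Figure D2:**
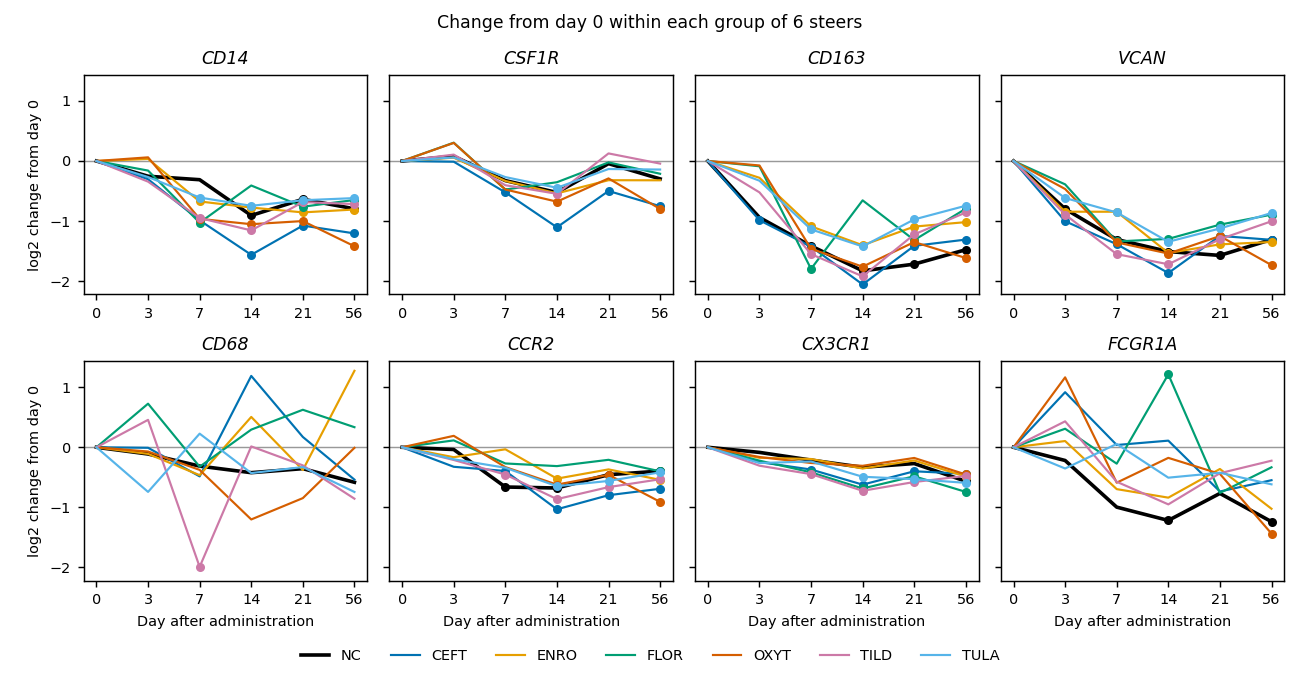
Log2 change from day 0 of each of the 8 genes in each of the 7 groups by day, from 1 fit over all libraries; filled points passed an adjusted p of 0.05. VCAN is below 0 and filled in all 7 groups on days 7, 14, 21 and 56, and FCGR1A in FLOR on day 14 is the only filled point above 0, at 1.21.

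Each of the 7 groups, NC included, was then read against its own day 0 in a joint fit of all libraries. Of 280 combinations of gene, group and day, 140 were called lower and 1 higher, where 11.3% of all genes in the 35 combinations of group and day were called lower. VCAN was called lower in 33 of 35, CD163 in 28, CD14 in 26, CCR2 in 21, CX3CR1 in 18, CSF1R in 10, FCGR1A in 3 and CD68 in 1. On day 14 the VCAN change lay between -1.86 and -1.30 over the 7 groups, and all 7 were called. CD163 was called in all 7 groups on days 7, 21 and 56 and in 6 on day 14. CD14 was called in all 7 groups on days 21 and 56, and CCR2 and CX3CR1 in all 7 on day 56. The single call of CD68 was in TILD on day 7 (-1.99, SE 0.76, adjusted p = 0.044).

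The single call upward was FCGR1A in FLOR on day 14 (1.21, SE 0.44, adjusted p = 0.039), and it rested on 1 library. In the day 14 library of Flor6, FCGR1A was at 10.7 CPM, and at 0.202 to 1.60 CPM in the other 5 FLOR steers. CD163 was at 265 CPM there and at 16.2 to 50.5 CPM in the others, and CD14 at 206 CPM against 29.2 to 42.6 CPM. All 3 values were the highest of all libraries of the study. CCR2, at 68.9 CPM, was also above the other 5, which had 46.4 to 52.2 CPM. VCAN, at 38.5 CPM, CSF1R, at 133 CPM, and CX3CR1, at 134 CPM, were within the range of the other 5, and CD68, at 2.44 CPM, was below it.

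The same library held 2.85 CPM of CCL2 (rank 2 of all libraries), with 0 to 0.279 CPM in the other 5 FLOR steers, and 10.3 CPM of CCL8 (rank 3), with 0 to 9.76 CPM in the others. On day 7 and day 21, Flor6 had 0.407 and 0.474 CPM of FCGR1A and 30.5 and 31.7 CPM of CD163. With FLOR fitted alone, the FCGR1A change on day 14 was 1.21 (adjusted p = 0.271), and without Flor6 it was -0.54 (adjusted p = 0.484). Flor6 likewise held back the day 14 decline of CD14 and CD163 in FLOR. With FLOR fitted alone these were -0.41 and -0.66 with Flor6 and -1.02 and -1.78 without it. Neither was called with Flor6 (adjusted p = 0.400 and 0.430), and both were called without it (adjusted p = 0.0038 and 0.0016).

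Treated steers were then compared with NC steers on each day. The study used this comparison together with a mixed model of group, time and their interaction to look for effects of each antimicrobial. No member was called in any of the 36 comparisons of 6 treated and 6 NC steers at an adjusted p of 0.1 (0 of 288 by edgeR's quasi-likelihood test, against 0.699% of all genes). DESeq2 called 11 of the 288. Among them were CCR2 in ENRO on day 7 (0.48, adjusted p = 0.049) and CD14 in CEFT on day 14 (-0.56, adjusted p = 0.046). The likelihood ratio test of edgeR called 1, and 0 after lane correction by ComBat_seq, the pairwise procedure of the study. Shares of all genes called by these tests are not given here, so their counts are not read as a result about the members. The study kept genes that its mixed model (glmmSeq) called as well, and that model was not run here. By the quasi-likelihood test there were 35 at an unadjusted p under 0.05, or 12.2%, and 10.1% over all genes. All 36 comparisons share the NC steers of their day. In none of the 288 did the treated and NC steers fail to overlap, and 0.81% of all genes did not overlap.

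**Figure D3:**
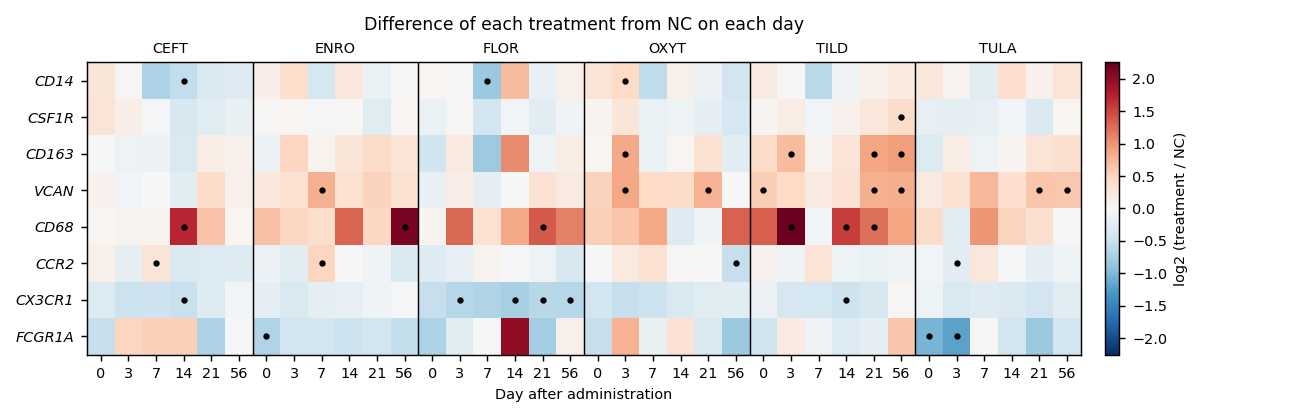
Log2 difference between each treatment and NC for the 8 genes on each of the 6 days, as a colour scale; dots mark an unadjusted p under 0.05. There are 35 dots among the 288 cells and none passed the adjusted threshold of 0.1.

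The smallest adjusted p was that of VCAN in OXYT on day 3, which was 0.87 above NC (SE 0.29, adjusted p = 0.153), followed by CD68 in TILD on day 21 (1.25, SE 0.46, adjusted p = 0.164) and CD163 in OXYT on day 3 (0.85, SE 0.29, adjusted p = 0.166). The smallest unadjusted p was that of VCAN in TILD on day 56, which was 0.82 above NC (SE 0.19, adjusted p = 0.232). This value was called by DESeq2 (0.83, adjusted p = 0.017) and was the 1 call of the likelihood ratio test (0.82, adjusted p = 0.035). It was not called with ComBat_seq (0.61) or with lane in the fit (0.72, SE 0.46). On day 0, before administration, VCAN in TILD was already 0.55 above NC (SE 0.21, adjusted p = 0.601). Differences ranged from -1.21 for FCGR1A in TULA on day 3 (adjusted p = 0.396) to 2.2 for CD68 in TILD on day 3 (SE 0.92, adjusted p = 0.243). FCGR1A in TULA was already -1.05 on day 0 (adjusted p = 0.770). The CD68 value includes Tild7, whose 101 CPM on day 3 was the highest CD68 level of all libraries. VCAN and CD68 were each above NC in 32 of 36 comparisons, and CX3CR1 was below NC in 35 of 36. These counts include day 0, before administration. The same 6 NC steers recur in every comparison, so the 36 signs are not independent. In FLOR on day 14, FCGR1A was 2.0, CD163 1.06 and CD14 0.72 above NC with Flor6, and 0.02, -0.25 and -0.15 without it. With 6 steers a group, a difference that misses the threshold is not shown to be absent.

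Against their own day 0, treated and NC steers differed in 1 of 240 tests, for CCR2 in ENRO on day 7, where 0.286% of all genes in the 30 contrasts and 6.24% in ENRO on day 7 were called. In the 6 NC steers the log2 change of CCR2 from day 0 to day 7 ranged from -0.95 to -0.29 with a median of -0.64, and was below 0 in 6 of 6. In the 6 ENRO steers it ranged from -0.58 to 0.59 with a median of -0.03, and was below 0 in 3 of 6. The 2 ranges overlapped. The change in ENRO exceeded that in NC by 0.63 (SE 0.21, adjusted p = 0.048), and the 5 days together were also called (adjusted p = 0.040, against 8.67% of all genes). NC and ENRO were on the same lane.

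This call was close to its threshold. It held with RLE scaling (0.63, adjusted p = 0.049), with ComBat_seq (0.71, adjusted p = 0.036) and with these 2 groups fitted alone (0.63, adjusted p = 0.038), and did not with limma (0.61, adjusted p = 0.061) or without the steer block (0.61, adjusted p = 0.277). Leaving out 1 steer at a time gave differences of 0.50 to 0.73 and adjusted p of 0.0117 to 0.214, and the call was lost without NC5, NC7, NC13, NC15, Enro2, Enro5, Enro8 or Enro10. CCR2 in ENRO was lower than on day 0 on day 14 (-0.52, adjusted p = 0.0046) and day 56 (-0.54, adjusted p = 0.0020).

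Averaged over all 6 days, 1 of 48 differences between a treatment and NC was called by limma, where 1.95% of all genes over the 6 treatments were. It was CX3CR1 in FLOR. The means of the 6 FLOR steers over their 6 libraries ranged from 118 to 282 CPM (median 191 CPM), and those of the 6 NC steers from 142 to 484 CPM (median 305 CPM), so the groups overlapped. The difference was -0.63 (SE 0.15, adjusted p = 0.0075, against 1.56% of genes called for FLOR). It was already -0.52 on day 0, before administration, when the comparison on that day did not pass (adjusted p = 0.989). Of the 6 FLOR steers, 2 shared the lane of NC. With lane in the fit the difference was -0.64 (adjusted p = 0.164), and with ComBat_seq it was -0.48 (adjusted p = 0.174). Leaving out 1 steer at a time gave -0.83 to -0.49, with adjusted p from 0.000583 to 0.157, and 9 of the 12 omissions lost the call, all but those of NC13, Flor7 and Flor10.

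**Figure D4:**
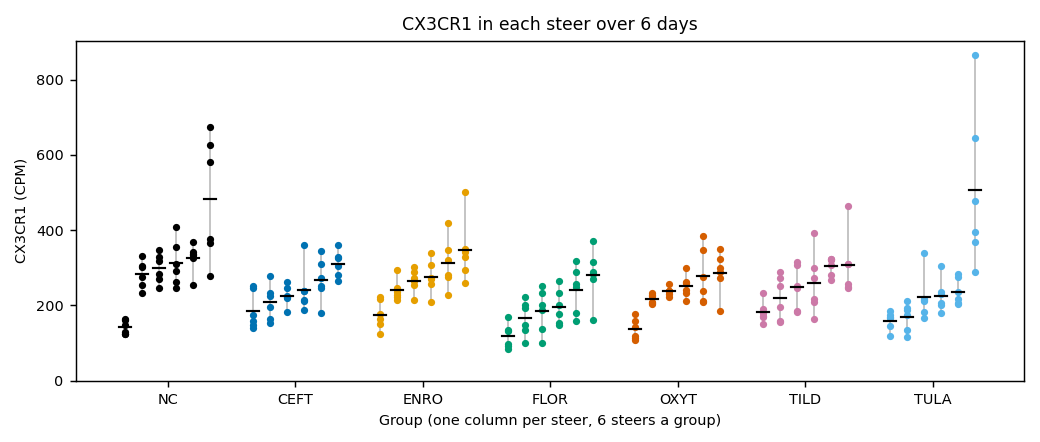
CX3CR1 level of each of the 42 steers, as its 6 libraries and their mean, in CPM, by treatment. Steer means run from 118 to 282 CPM in FLOR and from 142 to 484 CPM in NC, and steers keep their place over the days.

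CX3CR1 varied more by steer than by day. Steer within treatment took 56.1% of its variance and day 12.8%. The same order held for CSF1R (38.5% and 24.2%), FCGR1A (23.1% and 15.5%) and CD68 (16.3% and 3.02%). The medians over all genes tested were 29.7% for steer and 8.36% for day. The share of variance within days that lay between steers (intraclass correlation) was 0.73 for CX3CR1, 0.59 for VCAN, 0.51 for CSF1R, 0.45 for CD14, 0.37 for CD163, 0.36 for CCR2, 0.19 for FCGR1A and 0.04 for CD68, with 0.35 for the median gene. Day took 44.8% of the variance of VCAN, 44.1% of CD163, 35.4% of CCR2, 35% of CD14, 24.2% of CSF1R, 15.5% of FCGR1A and 3.02% of CD68. The median was 29.6% over the 8 genes and 8.36% over all genes tested.

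After the mean of each treatment and day was removed, the 8 genes varied together in part. Over all libraries, which share steers and depth (n = 42 steers with 6 days each), 24 of 28 pairs had a Pearson correlation above 0, with a median of 0.35. The highest was between CD163 and VCAN, at 0.75, and the lowest between CD68 and CX3CR1, at -0.13. CD68 had a median of -0.02 with the other 7 genes. CX3CR1 had a median of 0.15 with the other 7, and of 0.62 with 6 NK and cytotoxic cell genes, the lowest of which was 0.31. With the 31 other monocyte genes, CSF1R had the highest median of the 8, at 0.39, and CD68 the lowest, at 0.02. CD163 was at 0.26, CD14 at 0.23 and VCAN at 0.22, and CX3CR1, CCR2 and FCGR1A were each at 0.20.

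**Figure D5:**
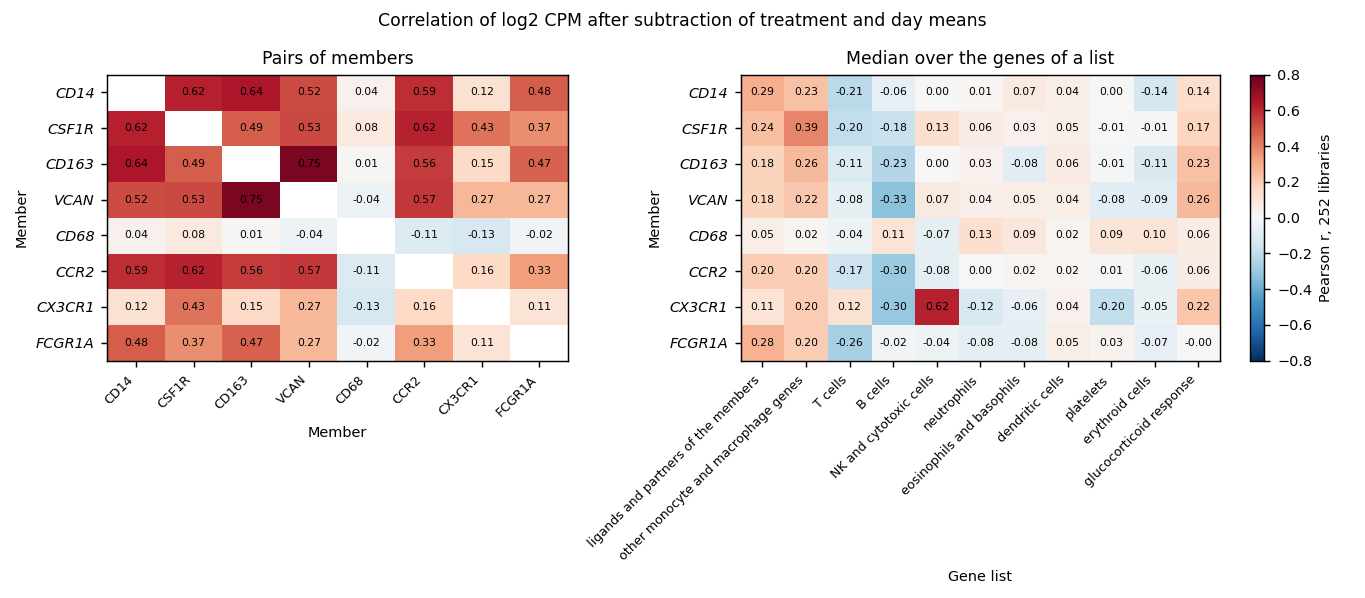
Pearson correlations between the 8 genes over all libraries after subtraction of the mean of each treatment and day, as a colour scale with the value in each cell. CD163 and VCAN reach 0.75, and the row of CD68 stays near 0.

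The genes most like each member over the same libraries differed between members. For CSF1R they included CTSB, a lysosomal protease (Pearson r = 0.82), and EMILIN2 (0.82). For CCR2 they were SHTN1 (0.79), F13A1, the coagulation factor XIII subunit made by monocytes and platelets (0.79), and GDA (0.76). For CD14 they were SHISA5 (0.71), EMILIN2 (0.71) and EHD4 (0.70). CD163 and VCAN had each other (0.75) and NRG1, a growth factor of the EGF family (0.72 and 0.71), and then ADAMTS2 with CD163 and PPM1D with VCAN (0.65 for both). For CX3CR1 they were ADGRG1, an adhesion receptor of cytotoxic lymphocytes (0.84), B3GNT7 (0.83) and LOC100848575 (0.82). For FCGR1A they included the cytokines IL27 (0.58) and TNFSF13B (0.56). CD68 had no close neighbour, with LOC101903165 (0.37), CYTH4 (0.35) and MAEA (0.35) ranking first.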

How the data were processed

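Whole blood was collected into PAXgene tubes, and stranded mRNA libraries were sequenced on 3 lanes. The submitters' processing notes name FastQC 0.11.9, Trimmomatic 0.39, HISAT2 2.1.1, StringTie 2.2.0 and edgeR 3.36.0, and the study's methods name the assembly ARS-UCD1.3. The authors deposited 1 table of estimated counts per gene, whole numbers made by StringTie from read coverage, with no normalization. How reads shared by paralogs were divided is not given in the sources used here.

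The members and lists were chosen with earlier results of these data known. Named beside the 8 members were the 3 genes with the highest Pearson correlation to each (1 of them is not reported here), every tested ligand or partner, and from each other list at most 4 genes past the day test with the widest change. Each column matched 1 sample. No 2 libraries of a group and day agreed within sampling noise (smallest chi-square per degree of freedom 71.69). Genes above 0.2 CPM in at least 12 libraries were kept (19056 of 33282) and scaled by TMM in edgeR 4.0.16 (R 4.3.3). Day effects, overall and in NC, and changes from day 0 used the quasi-likelihood test with steer as a block, at a Benjamini-Hochberg adjusted p of 0.05 over all genes. Steer identity comes from the labels, which give the same steer on all 6 days. Steers of different groups were not paired. Treatment was compared with NC within a day at an adjusted p of 0.1, as in the study. Averages over days used limma 3.58.1 with steer as a random block. Members were compared by sign flips over steers with 100000 resamples. Changes within each group were read from the joint fit of change from day 0, added after the pooled values were known. Log2 CPM for correlations and within-steer changes used a prior count of 2. DESeq2 1.42.0, ComBat_seq (sva 3.50.0), lane terms, other scalings, omitted hemoglobin genes and omitted steers were among the alternatives. The count tests were tested on simulated data first. Figures used Python 3.11.15 and matplotlib 3.10.9, and permutations numpy 2.4.6. All 8 symbols matched RefSeq (ARS-UCD2.0), whose coordinates belong to another build and are not used here.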

Additional observations from a re-analysis of the deposited data

Results flagged for a closer look

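In groups of 6 steers of 1 treatment on 1 day, the highest or lowest library lay apart from the other 5 in 17 of 336 cases (5.06%), and chance sets apart about 1 in 20 groups. The number after each library below is the gap to its nearest neighbour as a share of the range of the group, both on the log2 CPM scale. Flor6 and Ceft10 account for 8 of the 17.

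Flor6 on day 14 had CD14 at 206 CPM, with the other 5 FLOR steers at 29.2 to 42.6 CPM (0.807), and CCR2 at 68.9 CPM, with the others at 46.4 to 52.2 CPM (0.703). On day 3 the same steer was the lowest of its group for CSF1R, at 130 CPM (0.663), and for VCAN, at 38.9 CPM (0.637). Ceft10 on day 0, before administration, had CSF1R at 551 CPM, with the other 5 CEFT steers at 162 to 249 CPM (0.646), CCR2 at 173 CPM, with the others at 54.9 to 81.1 CPM (0.659), and FCGR1A at 2.27 CPM, with the others at 0.414 to 0.666 CPM (0.731). Its CSF1R and CCR2 values were the highest of all libraries, and its CD14 value of 183 CPM the second highest. On day 7 its FCGR1A was again the highest of CEFT, at 2.52 CPM (0.652).

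High values elsewhere were CSF1R in Tild3 on day 7 (260 CPM, 0.747) and CD163 in Flor7 on day 21 (59.4 CPM, 0.658). Low values were CSF1R in NC13 on day 3 (126 CPM, 0.671), CD68 in Ceft8 on day 7 (1.07 CPM, 0.699), CX3CR1 in Enro9 on day 14 (152 CPM, 0.642), in NC13 on day 56 (129 CPM, 0.833) and in Oxyt5 on days 7 and 56 (114 and 109 CPM, 0.629 and 0.669), and FCGR1A in Oxyt9 on day 7 (0.147 CPM, 0.653).

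The change of CCR2 from day 0 differed between ENRO and NC by a test of the difference itself, over the 5 days together (edgeR, adjusted p = 0.04) and on day 7 (adjusted p = 0.048). Leaving out any 1 of 8 of the 12 steers ended the day 7 call.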

How the results depend on the processing

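Of the 30 calls of a member on a day over all steers, tried under 11 alternatives each (330 values), 313 stayed called in the same direction, 15 kept the direction and lost the call, and 2 turned, both for CSF1R within lane 2 (0.062 on day 21 and 0.0054 on day 56). Within lane 2, 1 member was called on day 3 in place of 3. Directions of values not called turned for CD68 on day 3 (-0.018 within lane 1, -0.058 within lane 3, -0.014 with limma), on day 14 within lane 2 (-0.19), and on days 21 and 56 within lane 1 (0.079 and 0.39), and for FCGR1A on day 3 within lane 1 (-0.070) and day 14 within lane 2 (0.55). CCL2 on day 3, called over all steers, was -0.30 within lane 1. In NC, without the steer block the counts of called members were 3 for the 5 days together and 1, 4, 2 and 2 on days 7, 14, 21 and 56. With 1 NC steer left out they were 4 to 6 for the 5 days together, 1 to 3 on day 7, 4 to 6 on day 14, 2 to 4 on day 21 and 3 to 6 on day 56. The NC log2 change then spanned 0 for CSF1R on day 21 (-0.12 to 0.022), CD68 on days 3 (-0.88 to 0.54), 7 (-0.90 to 0.44), 21 (-0.58 to 0.16) and 56 (-1.15 to 0.14), CCR2 on day 3 (-0.059 to 0.014) and FCGR1A on day 3 (-0.49 to 0.044). Member counts under the alternatives are given without the shares of all genes called there. For treatment against NC on a day, DESeq2 called 11 and the likelihood ratio test 1. For change from day 0 against NC, limma and the fit without the steer block called 0. For the average over days, ComBat_seq and lane as a term called 0, and leaving out the steer block called 9, since the 6 libraries of a steer then count as separate. The cause of the other differences was not tested. FCGR1A and the CCR2 ligands were limited by their low counts. The fits without Flor6, of FLOR alone, and of ENRO or FLOR with NC alone or with 1 steer left out were chosen after seeing the data.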

Other observations

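Further marker lists, 4 in all, moved with day in the same fit of all 42 steers (edgeR quasi-likelihood test, adjusted p under 0.05). Of all genes tested, 33.9% were called higher and 31.8% lower on day 56, and 22.1% higher and 19.2% lower on day 3. Of 9 eosinophil and basophil genes tested, 5 were higher and 1 lower on day 56, with IL5RA, a chain of the interleukin 5 receptor, at 1.68 (SE 0.13), CCR3, the eotaxin receptor, at 0.96 (SE 0.09), and PRG3, an eosinophil granule protein, at 1.28 (SE 0.33, not called within lane 1 or lane 2). Of 7 dendritic cell genes, 2 were higher and 5 lower on day 56. BATF3 and XCR1, genes of cross-presenting dendritic cells, were at -0.92 on day 7 and at -0.81 on day 21 (XCR1 not called within lane 3), and ZBTB46 was at 0.91 on day 56. IL3RA was at 1.05 on day 14, and not called within lane 1 or lane 3.

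Of 10 platelet genes, 7 were higher and 1 lower on day 3, when PF4, platelet factor 4, was at 0.71 (SE 0.11, not called within lane 1). On day 56, 1 was higher and 2 lower, and CLEC1B was at -1.96 (SE 0.37), the widest change of this list. THBS1, thrombospondin 1, which monocytes make as well, was at -1.40 on day 14 (SE 0.13), and its level over libraries had a Pearson correlation of 0.57 with VCAN after subtraction of the mean of each treatment and day. Of 6 NK and cytotoxic cell genes, 2 were higher and 4 lower on day 56. GZMB, granzyme B, was at 0.70 on day 14, CTSW, cathepsin W, at 0.42 on day 21, and the NK receptors KLRF1 and NCR1 at -0.64 and -0.59 on day 56.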
